A study of Mus musculus with 15 samples.

Results

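The genes described here are Dnmt1, Dnmt3a, Dnmt3b and Dnmt3l, which encode members of the DNA methyltransferase family, and Uhrf1, whose product guides DNMT1 to newly replicated DNA. They are 5 of 20807 protein-coding genes on the 19 autosomes, and were chosen by name, not by their coverage. All CGs between 2 kb upstream of the gene start and the gene end were taken, which gave 957 CGs in Dnmt1, 1671 in Dnmt3a, 570 in Dnmt3b, 329 in Dnmt3l and 410 in Uhrf1, or 3937 of the 21353092 CGs in the data. The DNA came from the E14TG2a line of mouse embryonic stem cells (mESCs), kept on gelatin with serum and LIF, and was mapped by hmTOP-seq, in which T4 β-glucosyltransferase (BGT) puts an azide-carrying glucose on 5-hydroxymethylcytosine (5hmC) and reads are primed from an oligonucleotide tethered there. Each DNA input of 500, 50 and 5 ng had 2 labeled libraries and 2 control libraries made without BGT, and unmodified CGs (uCGs) were mapped by uTOP-seq in 3 libraries from 300 ng. All 15 libraries come from 1 unedited and untreated cell line, so that no genotype or treatment was compared, and the replicates are technical: a p-value below measures the spread between libraries of the same DNA.

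DNA methyltransferases put a methyl group on cytosine, chiefly at CGs. DNMT1 copies the pattern of the old strand after replication and is brought there by UHRF1, which binds hemimethylated CGs, whereas DNMT3A and DNMT3B methylate new sites and DNMT3L, which has no activity of its own, assists them. TET enzymes oxidize the methyl group to 5hmC, and embryonic stem cells hold much of it. Coverage is the number of reads at a CG after removal of duplicates and not a percentage of modified DNA, and DNA marks are not levels of RNA, which was not measured in these libraries.

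Dnmt1 lies on the minus strand of chromosome 9 (mm10, chr9:20907209-20959888) and has 2 groups of starts in GENCODE M21. The upstream start belongs to Dnmt1-202 with 1501 codons, a form of the shorter kind known from oocytes, and 6.91 kb further in starts Dnmt1-201 with 1620 codons, the form of somatic cells. Dnmt3a (chr12:3806007-3914443, plus strand) has 7 groups, among them Dnmt3a-201 with 908 codons (the long form, DNMT3A1) and, 85.7 kb from the gene start, Dnmt3a-203 and Dnmt3a-205 (689 codons in Dnmt3a-203), the short form DNMT3A2 known from embryonic stem cells. Dnmt3b (chr2:153649450-153687730, plus strand) and Uhrf1 (chr17:56303321-56323486, plus strand) have 1 group each. Dnmt3l (chr10:78041947-78063622, plus strand) has 3, led by Dnmt3l-205, Dnmt3l-201 and Dnmt3l-202, and 70 of its CGs also lie in Aire, a neighboring gene. These 70 CGs were kept in the Dnmt3l values, and how they divide among promoter, exons and introns was not separated. The 2 Dnmt3a starts of Dnmt3a-211 and Dnmt3a-210 belong to transcripts annotated as incomplete at the 5′ end and need not be true starts.

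The contrast that runs through these genes can be read from 250 bases before a start, shown here for 6 starts and for neighboring or intronic DNA that carried much 5hmC. Each sequence is from GRCm38 (mm10), runs 5′ to 3′ along the gene, and has its CGs in capitals; none overlaps an exon of GENCODE M21.
Dnmt3a-201 upstream, chr12:3806780-3807029, plus strand: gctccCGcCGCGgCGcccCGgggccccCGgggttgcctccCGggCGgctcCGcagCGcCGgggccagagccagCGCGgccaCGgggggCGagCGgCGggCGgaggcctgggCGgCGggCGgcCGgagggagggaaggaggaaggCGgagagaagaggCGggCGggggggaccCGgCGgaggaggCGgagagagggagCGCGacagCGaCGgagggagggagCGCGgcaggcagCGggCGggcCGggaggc
Dnmt3a-205 upstream, chr12:3891478-3891727, plus strand: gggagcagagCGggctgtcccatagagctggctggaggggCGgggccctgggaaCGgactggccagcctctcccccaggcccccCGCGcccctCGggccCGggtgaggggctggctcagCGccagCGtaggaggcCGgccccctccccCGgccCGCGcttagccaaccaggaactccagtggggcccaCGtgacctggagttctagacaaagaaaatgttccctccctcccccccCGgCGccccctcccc
Dnmt3b upstream, chr2:153649200-153649449, plus strand: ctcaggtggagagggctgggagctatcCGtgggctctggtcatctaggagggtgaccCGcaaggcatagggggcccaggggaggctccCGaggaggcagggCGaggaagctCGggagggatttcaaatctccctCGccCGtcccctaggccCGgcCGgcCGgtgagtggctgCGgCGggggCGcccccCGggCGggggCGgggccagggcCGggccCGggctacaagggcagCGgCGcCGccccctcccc
Dnmt1-201 upstream, chr9:20952980-20953229, minus strand: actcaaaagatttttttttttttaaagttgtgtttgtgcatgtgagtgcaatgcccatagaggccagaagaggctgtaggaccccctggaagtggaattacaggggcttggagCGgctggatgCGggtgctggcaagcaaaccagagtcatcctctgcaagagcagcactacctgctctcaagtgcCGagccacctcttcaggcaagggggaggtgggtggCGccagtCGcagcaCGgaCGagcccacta
Dnmt3l-201 upstream, chr10:78049592-78049841, plus strand: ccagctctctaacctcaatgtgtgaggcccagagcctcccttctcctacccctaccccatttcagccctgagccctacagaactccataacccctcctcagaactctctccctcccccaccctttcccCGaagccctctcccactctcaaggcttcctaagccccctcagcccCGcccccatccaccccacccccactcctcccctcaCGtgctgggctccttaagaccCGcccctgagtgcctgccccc
Uhrf1 upstream, chr17:56303071-56303320, plus strand: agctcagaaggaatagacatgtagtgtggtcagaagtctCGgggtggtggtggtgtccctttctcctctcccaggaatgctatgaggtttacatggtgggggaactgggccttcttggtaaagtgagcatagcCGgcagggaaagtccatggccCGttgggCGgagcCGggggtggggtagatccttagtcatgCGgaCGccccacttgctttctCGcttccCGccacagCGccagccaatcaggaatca
Uhrf1 flank, chr17:56302821-56303070, plus strand: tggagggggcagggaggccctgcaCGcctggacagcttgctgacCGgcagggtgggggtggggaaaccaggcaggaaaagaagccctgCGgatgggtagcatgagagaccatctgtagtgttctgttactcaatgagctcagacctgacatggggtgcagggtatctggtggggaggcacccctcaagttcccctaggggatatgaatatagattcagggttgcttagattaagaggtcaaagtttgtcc
Dnmt3a intron, chr12:3823507-3823756, plus strand: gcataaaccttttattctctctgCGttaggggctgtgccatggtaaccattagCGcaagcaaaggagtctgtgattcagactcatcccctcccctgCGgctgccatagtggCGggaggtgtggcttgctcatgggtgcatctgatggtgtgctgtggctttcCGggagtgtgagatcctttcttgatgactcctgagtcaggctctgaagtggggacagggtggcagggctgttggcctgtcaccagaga

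The 250 bases before Dnmt3a-201 hold 38 CGs, 37 of them whole within the printed bases, and had no read in either 500-ng library, and 14, 9 and 10 uCG reads in the 3 uTOP-seq libraries. Those before Dnmt3a-205 hold 16 CGs and had no 5hmC read at any input, with 7, 6 and 4 uCG reads. Before Dnmt3b, 21 CGs had 4 and 0 reads at 500 ng against 28, 20 and 54 uCG reads. Each of these 3 stretches was thus at or near 0 for 5hmC, and the first 2 were also low for uCG.

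Dnmt1-201 and Uhrf1 differed from them in uCG. Before Dnmt1-201, 7 CGs had 3 reads in each 500-ng library and 48, 44 and 36 uCG reads. Before Uhrf1, 10 CGs had 9 and 3 reads at 500 ng and 47, 63 and 40 uCG reads, while the second 5-ng library alone had 43 reads there and the first had none. Only 250 bases further upstream of Uhrf1, 3 CGs had 52 and 59 reads at 500 ng and 28, 10 and 8 uCG reads, so that 5hmC went from 0.60 ± 0.424 to 18.5 ± 1.65 reads per CG (SD, n = 2 libraries) between adjoining stretches.

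The Dnmt3a intron stretch, 17500 bp into the gene, had 93 and 143 reads at 5 CGs. In the 6 control libraries together, none of the 8 stretches had a read. These libraries held only 3409 to 10072 reads each over all CGs, so the lack of reads in a short stretch says little.

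Per CG, the 5 genes held more 5hmC than most genes. At 500 ng, Dnmt3l had 4.35 and 4.36 reads per CG over its whole length, Dnmt1 3.91 and 3.95, Uhrf1 3.88 and 3.62, Dnmt3a 3.76 and 3.64, and Dnmt3b 2.29 and 2.42. The order is Dnmt3l, Dnmt1, Uhrf1, Dnmt3a and Dnmt3b, and among neighbors in it only Uhrf1 and Dnmt3a overlapped between libraries; the order was not tested. The median of 20797 genes with at least 5 CGs was 1.52 reads per CG, with quartiles of 0.737 and 2.66. Dnmt3l was at the 93.2nd percentile of these genes, Dnmt1 at the 90.3rd, Uhrf1 at the 88.9th, Dnmt3a at the 88.5th and Dnmt3b, the lowest, at the 69.6th.

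In uTOP-seq the order was another. Dnmt3l had 4.02, 3.09 and 2.74 reads per CG in the 3 libraries, Uhrf1 3.30, 2.66 and 2.37, and Dnmt1 2.62, 2.07 and 1.76. Dnmt3b had 2.25, 1.68 and 1.65, and Dnmt3a 2.09, 1.74 and 1.54. The 3 libraries differ in depth and each ranked Dnmt3l, Uhrf1 and Dnmt1 in this order, while Dnmt3b and Dnmt3a changed places in the second. Against a median of 1.53 over all genes, Dnmt3l was at the 95.2nd percentile, Uhrf1 at the 88.3rd, Dnmt1 at the 73.1st, Dnmt3b at the 63.0th and Dnmt3a at the 60.3rd. Dnmt3l was therefore the highest of the 5 for both marks, and Dnmt3a was high for 5hmC but near the middle for uCG.

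**Figure D1:**
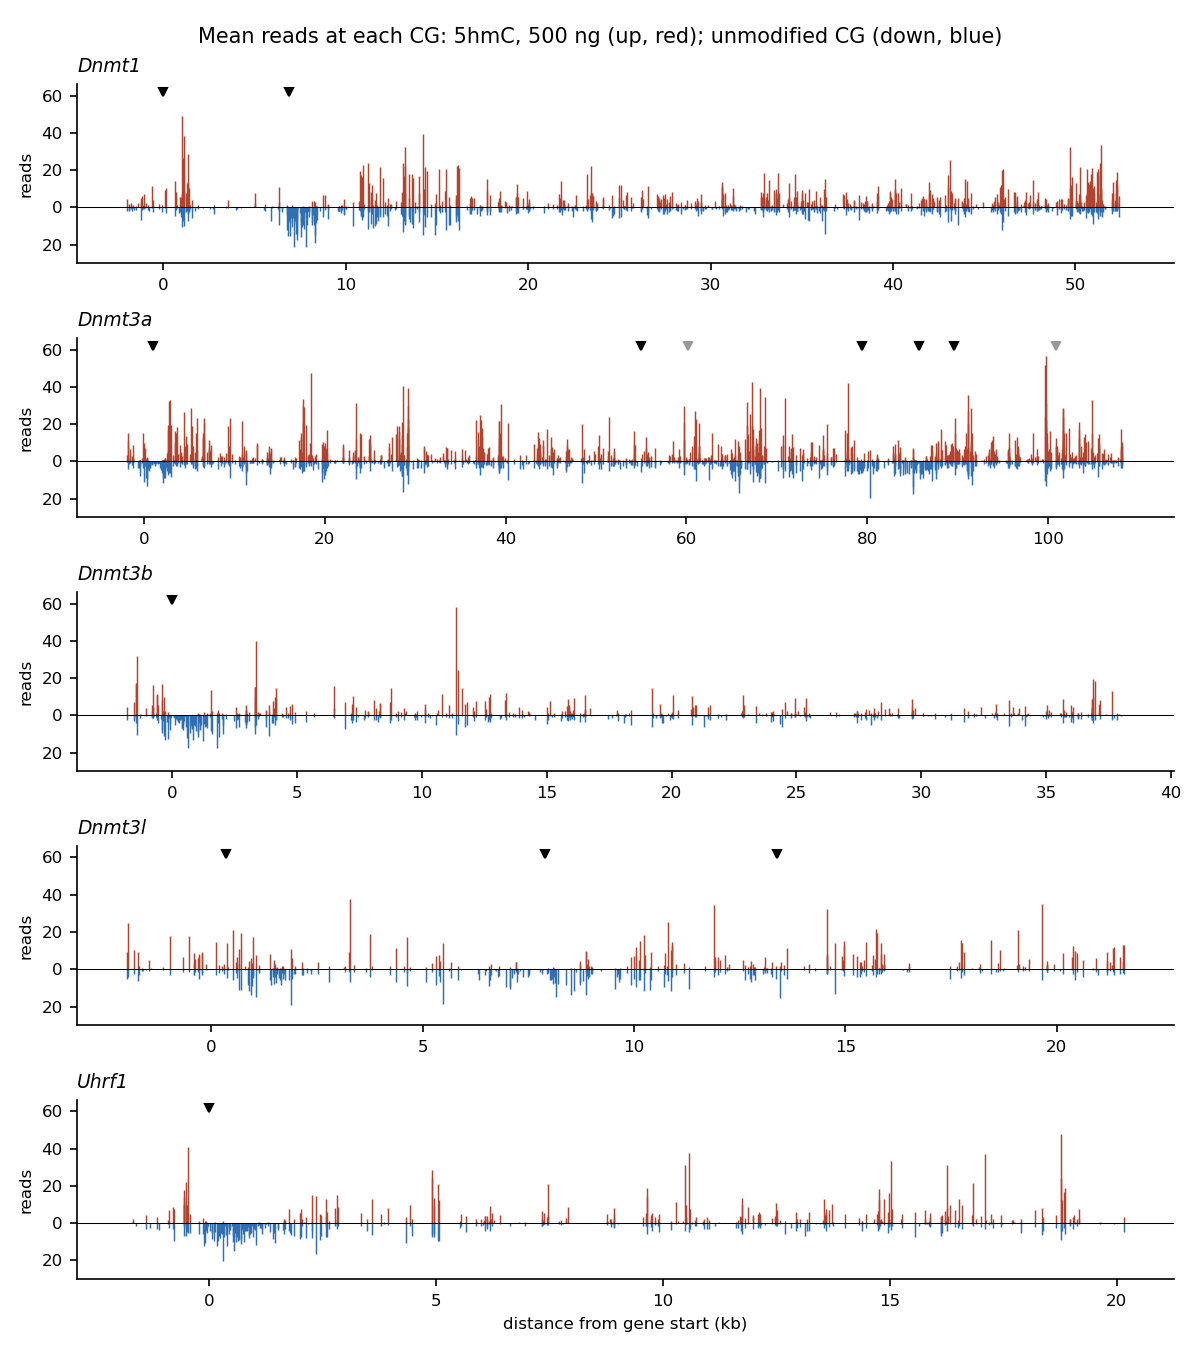
Mean reads at each CG of the 5 genes against the distance from the gene start in kb, with 5hmC of the 2 500-ng libraries drawn up in red and uCG of the 3 uTOP-seq libraries drawn down in blue; triangles mark groups of transcript starts, gray where the transcripts are incomplete at the 5′ end. Blue clusters without red lie over the starts of Dnmt1-201 and Uhrf1 and just downstream of the start of Dnmt3b. The highest red line of Dnmt3b, 58.0 reads, stands 11.4 kb into the gene.

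Coverage of a CG differed with how many CGs lay close by, counted in 251 bp around it with the CG itself included. Over all autosomes, CGs with 7 to 9 CGs in this window had 3.13 reads per CG at 500 ng and those with 20 to 29 had 0.475, whereas for uCG the values were 1.47 and 2.64. If every CG of a gene had the autosomal mean of its own density class, Dnmt3a would have 1.64 reads per CG at 500 ng, Dnmt3l 1.93, Dnmt1 2.25, Uhrf1 1.98 and Dnmt3b 1.69. The observed levels were 2.25 times this mean in Dnmt3a, 2.26 times in Dnmt3l, 1.74 times in Dnmt1, 1.90 times in Uhrf1 and 1.39 times in Dnmt3b. For uCG the ratios were 2.59 in Dnmt3l, 1.82 in Uhrf1, 1.59 in Dnmt1, 1.57 in Dnmt3b and 1.46 in Dnmt3a. All 10 ratios were above 1, as a description without a test, and these ratios were not computed for other genes. Without regard to density, the median gene had 1.33 times the library mean per CG for uCG and 0.973 times at 500 ng. A uCG ratio above 1 thus need not set a gene apart.

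Where CGs were dense, with at least 10 in the window, the genes parted. The 114 dense CGs of Dnmt3b had 0.0526 and 0 reads per CG in the 500-ng libraries, 0.0363 times the autosomal mean for their density, and 98.2% of them had no read. In Uhrf1 135 dense CGs had 1.02 and 0.919 reads per CG, 0.644 times that mean, and in Dnmt3l 46 had 1.02 and 2.11, 0.768 times. The 453 dense CGs of Dnmt3a had 1.52 and 1.44 reads per CG, 1.31 times the mean, and the 163 of Dnmt1 had 3.31 and 3.34, 1.41 times. Thus dense CGs lay below the autosomal mean for 5hmC in Dnmt3b and Uhrf1 and above it in Dnmt1 and Dnmt3a, while in Dnmt3l only the first library lay below it. The excess came from CGs with 10 to 14 in the window, which had 4.54 reads per CG in Dnmt1, 4.49 in Dnmt3a and 3.39 in Uhrf1 against 2.98 on all autosomes. CGs with 20 to 29 had at most 0.292 reads per CG in each of the 5 genes, below the autosomal 0.475. For uCG, the 453 CGs of Dnmt3a with at least 10 in the window were the lowest, with 1.35 reads per CG or 0.908 times the mean, while the dense CGs of the other 4 genes had 1.43 to 1.74 times.

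**Figure D2:**
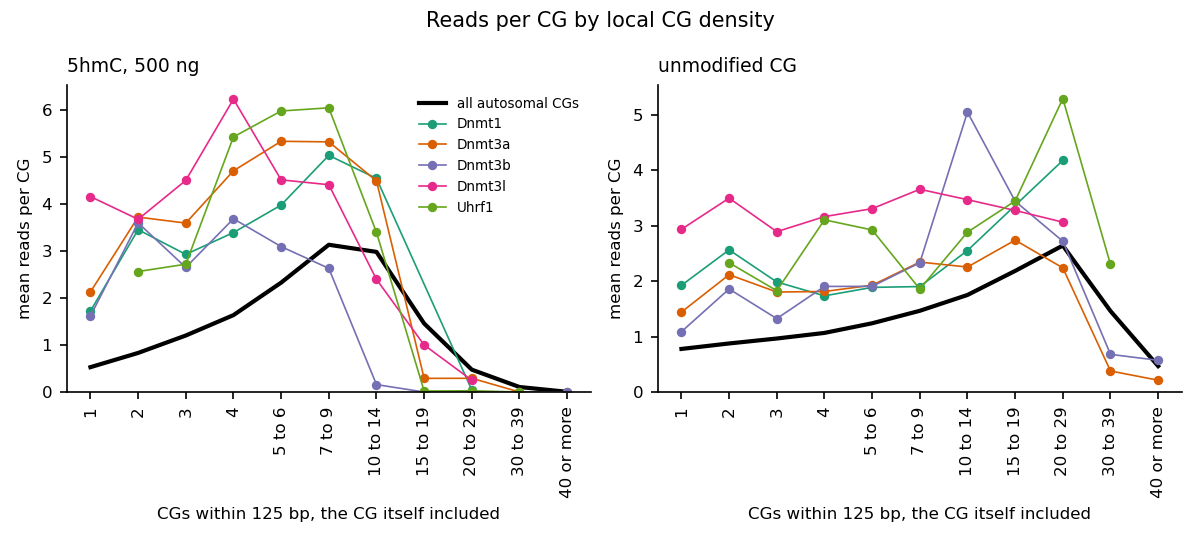
Mean reads per CG against the number of CGs in 251 bp around it for 5hmC at 500 ng (left) and uCG (right); the black line is all autosomal CGs and each colored line 1 of the 5 genes, shown where a gene has at least 10 CGs in a class. At fewer than 7 CGs every gene lies above the black line for 5hmC, and Dnmt3b drops to near 0 from 10 CGs on.

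The starts were then followed in 250-bp bins. Within 500 bp of the Dnmt3a-201 start, 158 CGs had no read in either 500-ng library, which allows at most 0.00949 reads per CG (3 counts over both libraries; counting error only) and is at least 384-fold lower than the 3.65 reads per CG of the gene body, and autosomal CGs of the same density had 0.0549 reads per CG; uCG reads were 67, 40 and 56. Within 500 bp of Dnmt1-201, 53 CGs had 7 and 3 reads at 500 ng and 305, 264 and 212 uCG reads, or 0.0943 against 4.91 per CG. Around Dnmt3a-203, 49 CGs had 5 and 3 reads at 500 ng and 134, 107 and 90 uCG reads. Around Dnmt3l-201, 19 CGs had 3 and 1 reads at 500 ng and 85, 73 and 75 uCG reads. At each of these 4 starts no CG was covered in both 500-ng libraries.

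At Dnmt3b, 102 CGs within 500 bp had 59 and 25 reads at 500 ng and 185, 134 and 169 uCG reads, and 5 CGs were covered in both 500-ng libraries. Uhrf1 had 45 CGs there with 62 and 64 reads at 500 ng and 263, 256 and 181 uCG reads. The upstream starts of 2 genes were unlike these. Within 500 bp of Dnmt3l-205, 15 CGs had 116 and 99 reads at 500 ng, 7.17 reads per CG, against 54, 49 and 44 uCG reads, and 4 CGs around Dnmt1-202 had 5.88 reads per CG for 5hmC and 1.75 for uCG. In Dnmt1 and Dnmt3l the first start thus had 5hmC around it and the next start further inside had little. CGs that also lie in Aire were not set apart at the Dnmt3l starts.

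5hmC was found at the borders of these starts. In Dnmt3a, the 3 CGs from 1750 to 1999 bp after the Dnmt3a-201 start had 28.3 reads per CG at 500 ng, while the 45 CGs in the bin that begins 250 bp after it had no 5hmC read and 0.193 uCG reads per CG. In Dnmt3b, 16 CGs from 2000 to 500 bp upstream had 9.19 and 8.56 reads per CG, and 43 CGs from 500 to 2000 bp downstream had 0.884 and 0.605. In Uhrf1 the values were 7.63 and 5.21 upstream at 19 CGs, and 0.202 and 0.157 downstream at 89 CGs, before they returned to 6.65 and 5.20 from 2000 to 3000 bp at 20 CGs. Both genes thus had more 5hmC before the start than after it. The uCG reads lay on the other side: 6.44 per CG downstream of Dnmt3b against 2.31 upstream, and 3.64 against 2.51 at Uhrf1. In the first uTOP-seq library the Uhrf1 values were close, 4.22 downstream and 4 upstream. Autosomal CGs of the same density had 1.51 downstream and 1.10 upstream for Dnmt3b, and 2.11 and 1.14 for Uhrf1. As a multiple of these means, uCG was higher downstream at Dnmt3b but not at Uhrf1.

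**Figure D3:**
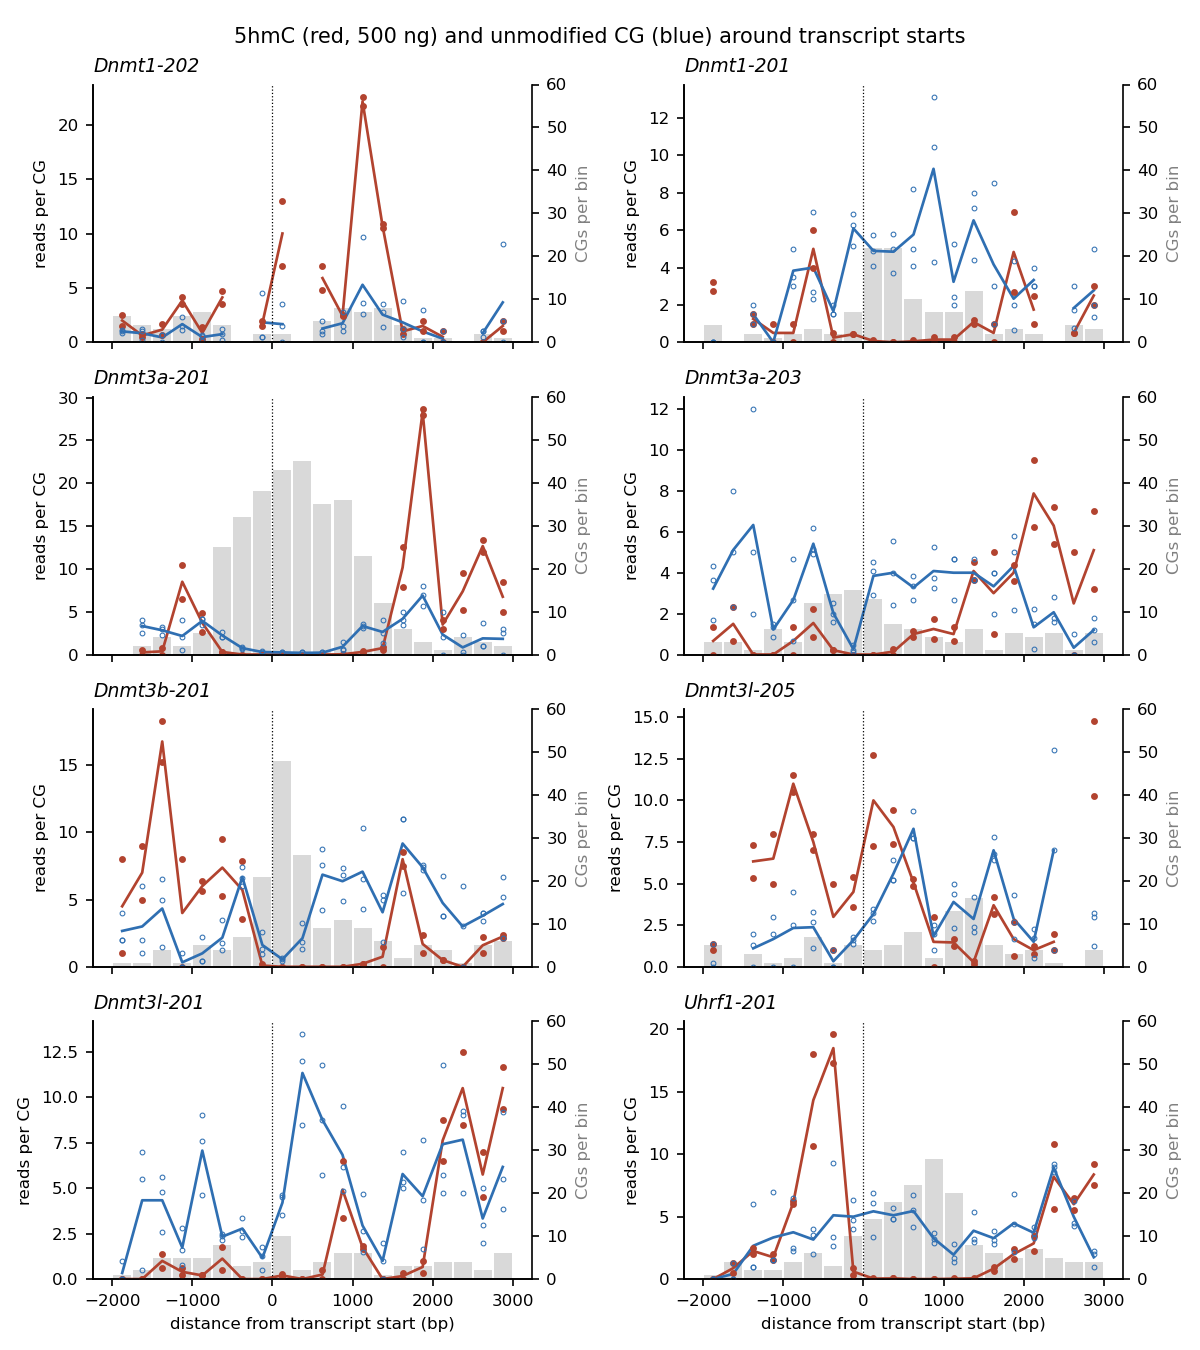
Reads per CG in 250-bp bins from 2000 bp before to 3000 bp after 8 transcript starts, with 5hmC at 500 ng in red and uCG in blue (lines for the mean, points for each library) and gray bars for the number of CGs in a bin (right axis); bins without a CG are gaps. The red line is near 0 over the starts of Dnmt1-201, Dnmt3a-201, Dnmt3a-203, Dnmt3l-201, Dnmt3b-201 and Uhrf1-201. The blue line also drops to 0.193 over Dnmt3a-201, to 0.556 over Dnmt3b-201 and to 0.267 just before Dnmt3a-203.

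The longest run of neighboring CGs without a read in either 500-ng library held 244 CGs over 1614 bp in Dnmt3a, 114 over 1173 bp in Dnmt3b, 70 over 765 bp in Uhrf1, 39 over 534 bp in Dnmt1 and 12 over 725 bp in Dnmt3l. The run began 363 bp after the gene start in Dnmt3a, 162 bp before it in Dnmt3b, 347 bp after it in Uhrf1, 7067 bp after it in Dnmt1 and 7221 bp after it in Dnmt3l. The runs of Dnmt3a, Dnmt3b and Dnmt3l spanned the starts of Dnmt3a-201, Dnmt3b-201 and Dnmt3l-201, and those of Uhrf1 and Dnmt1 lay just downstream of Uhrf1-201 and Dnmt1-201. The runs of Dnmt1 and Uhrf1 were well covered by uTOP-seq, with 5.12 and 4.02 reads per CG. Those of Dnmt3l and Dnmt3b had 2.50 and 2.11, and 37 of the 114 CGs in the run of Dnmt3b had no uCG read. That of Dnmt3a had 0.396 reads per CG, and 153 of its 244 CGs had no uCG read either. On all autosomes, CGs with 40 or more CGs in 251 bp also had few reads of either kind, 0.00472 at 500 ng and 0.468 for uCG.

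Whether promoters as a whole carried more or less of each mark than the gene body was tested with the quasi-likelihood test of edgeR. All promoters were tested, those of gene starts and of alternative starts together. A promoter was the 2 kb before the first start of a group, and the body all CGs of the gene outside any promoter. For 5hmC, 21.7% of 29042 promoters were higher than the body and 44.7% were lower at an adjusted p under 0.05. Of the 5 gene starts, those of Dnmt3b, Uhrf1 and Dnmt3l were higher, that of Dnmt1 was lower and Dnmt3a was not called, and the median log2 difference was 0.49 against −0.51 over all promoters. Dnmt3b had 4.68 and 3.68 reads per CG in the promoter and 2.09 and 2.32 in the body (log2 difference 0.92, edgeR adjusted p = 1.09e-04). Uhrf1 had 6.44 and 5.03 against 3.66 and 3.51 (0.67, edgeR adjusted p = 9.84e-04), and Dnmt3l 5.92 and 7.28 against 4.75 and 4.63 (0.49, edgeR adjusted p = 0.0121). CGs shared with Aire were not left out of the Dnmt3l promoter or body. Dnmt1 had 1.97 and 2.22 against 4.04 and 4.06 (−0.95, edgeR adjusted p = 9.35e-05). Dnmt3a had 4.25 and 3.40 against 3.68 and 3.62 (0.07, edgeR adjusted p = 0.741), where the libraries overlapped. The Dnmt3a window ends at the start of the gene record, 1.02 kb before Dnmt3a-201. The CG-dense DNA just before Dnmt3a-201 thus counted as gene body, for uCG too.

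These directions depended on where the promoter was drawn. With 1 kb on each side of the start, which takes in the CG-dense part, 21% of 28302 promoters were higher and 54.3% lower. Dnmt3b then came to −1.79 (edgeR adjusted p = 3.30e-06), Uhrf1 to −1.47 (edgeR adjusted p = 6.35e-06) and Dnmt3a to −3.17 (edgeR adjusted p = 1.15e-07), all lower than the body. Dnmt3l stayed higher (0.66) and Dnmt1 lower (−0.35, edgeR adjusted p = 0.0469). In the 50-ng libraries the promoters of Dnmt3b (0.42), Uhrf1 (0.82), Dnmt3l (0.08) and Dnmt1 (−0.75) kept their directions in the 2-kb window, and none was called.

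Of the 9 alternative starts, 3 were higher and 4 lower for 5hmC, beside 21.7% and 44.7% of all promoters. The lowest was Dnmt3l-201, with 0.576 and 0.455 reads per CG at 33 CGs against 4.75 and 4.63 in the body (log2 difference −3.19, edgeR adjusted p = 7.21e-09). Next came Dnmt3a-205, the DNMT3A2 start, with 0.632 and 0.421 at 57 CGs (−2.79, edgeR adjusted p = 4.93e-09), and Dnmt1-201 with 1.52 and 1.76 at 21 CGs (−1.30, edgeR adjusted p = 2.25e-05). With 1 kb on each side they were at −2.24, −3.03 and −3.85, so that these 3 starts were below their gene bodies in both windows. In the 50-ng libraries Dnmt1-201 was not called (−0.75). Dnmt3a-208 was also lower in the 2-kb window (−0.65), but not with 1 kb on each side (0.36, not called).

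The highest was Dnmt3a-210, with 13.2 and 12.3 reads per CG at 24 CGs (log2 difference 1.81, edgeR adjusted p = 5.75e-09), one of the starts incomplete at the 5′ end; it lies 101 kb into the gene, and its window holds the 2 most covered CGs of Dnmt3a. Dnmt3a-213 (0.47) and Dnmt3a-209 (0.42) were higher as well, and Dnmt3a-211 and Dnmt3l-202 were not called at −0.11 and −0.26. Of these, Dnmt3a-213 turned to −0.89 with 1 kb on each side, Dnmt3a-211 to 0.83 and Dnmt3l-202 to −0.98, each then called. Neither Dnmt3a-213 (0.58) nor Dnmt3a-209 (0.33) was called in the 50-ng libraries.

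**Figure D4:**
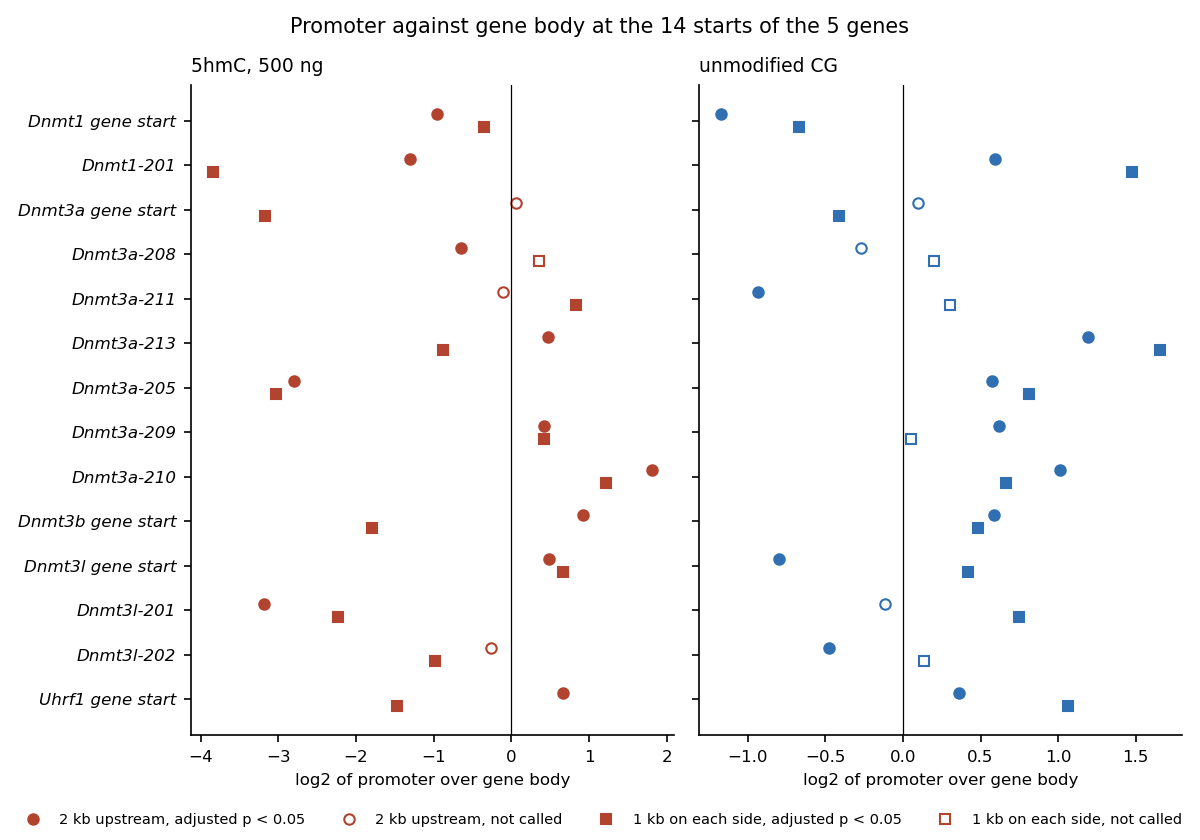
Log2 difference in reads per CG between promoter and gene body at the 14 starts of the 5 genes, for 5hmC at 500 ng (left) and uCG (right); circles take the 2 kb before the start and squares 1 kb on each side, filled at an edgeR adjusted p under 0.05. Circle and square lie on opposite sides of 0 for 5hmC at the gene starts of Dnmt3a, Dnmt3b and Uhrf1, and both lie left at Dnmt1-201, Dnmt3a-205 and Dnmt3l-201.

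For uCG, 40.5% of 29725 promoters were higher than the gene body and 16.3% were lower. Of the 5 gene starts 2 were higher and 2 lower, with a median log2 difference of 0.10 against 0.27 over all promoters. The Dnmt3b promoter had 2.52, 2.14 and 3.36 reads per CG against 2.23, 1.64 and 1.51 in the body (0.59, edgeR adjusted p = 4.36e-03), and the third library alone gave much of this: without it the difference was 0.28 and not called. Uhrf1 had 4.72, 3.41 and 2.47 against 3.17, 2.60 and 2.36 (0.36, edgeR adjusted p = 0.0301), and was not called without the first library (0.24) or without the second (0.35). Dnmt1 had 1.06, 1.06 and 0.750 against 2.64, 2.08 and 1.77 (−1.17, edgeR adjusted p = 9.66e-06), lower in 3 of 3 libraries. Dnmt3l had 2.64, 1.88 and 1.56 against 4.32, 3.26 and 2.94 (−0.80, edgeR adjusted p = 1.51e-04) but came to 0.42 with 1 kb on each side. Dnmt3a was not called (0.10), and came to −0.41 (edgeR adjusted p = 1.67e-03) with 1 kb on each side, where 53.7% of 29031 promoters were higher and 12.1% lower.

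Among the alternative starts 5 were higher for uCG and 2 lower, beside 40.5% and 16.3% of all promoters. Dnmt1-201 had 4.10, 3 and 2.71 reads per CG (log2 difference 0.59, edgeR adjusted p = 1.72e-03; 1.47 with 1 kb on each side), opposite in direction to its 5hmC. Dnmt3a-205 had 2.81, 2.26 and 2.51 (0.58, edgeR adjusted p = 8.62e-04; 0.81 with 1 kb on each side), again opposite to its 5hmC. Dnmt3a-213, Dnmt3a-210 and Dnmt3a-209 were higher at 1.19, 1.01 and 0.62, of which Dnmt3a-209 came to 0.05 and was not called with 1 kb on each side. Dnmt3a-211 (−0.93) and Dnmt3l-202 (−0.47) were lower, and with 1 kb on each side came to 0.31 and 0.14, neither called. Dnmt3l-201 was at −0.11 and not called, but at 0.75 with 1 kb on each side (edgeR adjusted p = 2.64e-06).

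Exons and introns outside the promoters were compared in the same way. For 5hmC, 47.3% of 17594 genes were higher in exons and 23.7% in introns, and the median log2 difference was 0.32. Dnmt3l was higher in exons, with 6.80 and 5.93 reads per CG against 4.14 and 4.24 in introns (0.60, edgeR adjusted p = 1.04e-08). Dnmt3a had 4.63 and 4.52 against 3.46 and 3.41 (0.41, edgeR adjusted p = 8.04e-11), and Uhrf1 4.19 and 4.27 against 3.42 and 3.16 (0.36, edgeR adjusted p = 2.02e-04). Dnmt1 (−0.10) and Dnmt3b (−0.16) were not called. Counting only CGs more than 2 kb from the gene start, Dnmt3b was higher in exons (0.33, edgeR adjusted p = 3.74e-03) and Uhrf1 was no longer called (0.14). In the 50-ng libraries the exon differences of Dnmt3l (0.39), Dnmt3a (0.25) and Uhrf1 (0.26) were not called.

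For uCG, 40.1% of 17874 genes were higher in exons and 16.1% in introns. Here 3 of the 5 genes were lower in exons. Dnmt3b had 1.29, 0.673 and 0.935 reads per CG in exons against 2.61, 2.04 and 1.74 in introns (−1.15, edgeR adjusted p = 1.34e-11), and −0.55 when only CGs more than 2 kb from the start were counted. Uhrf1 was at −0.51 (edgeR adjusted p = 1.60e-05) and Dnmt3a at −0.25 (edgeR adjusted p = 4.22e-03). Dnmt1 was higher in exons, with 3.19, 2.63 and 1.96 against 2.46, 1.91 and 1.71 (0.35, edgeR adjusted p = 1.73e-04), and Dnmt3l was not called (0.17; 0.38 and called with CGs more than 2 kb from the start). Dnmt3a and Uhrf1 were thus higher in exons for 5hmC and lower in exons for uCG.

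**Figure D5:**
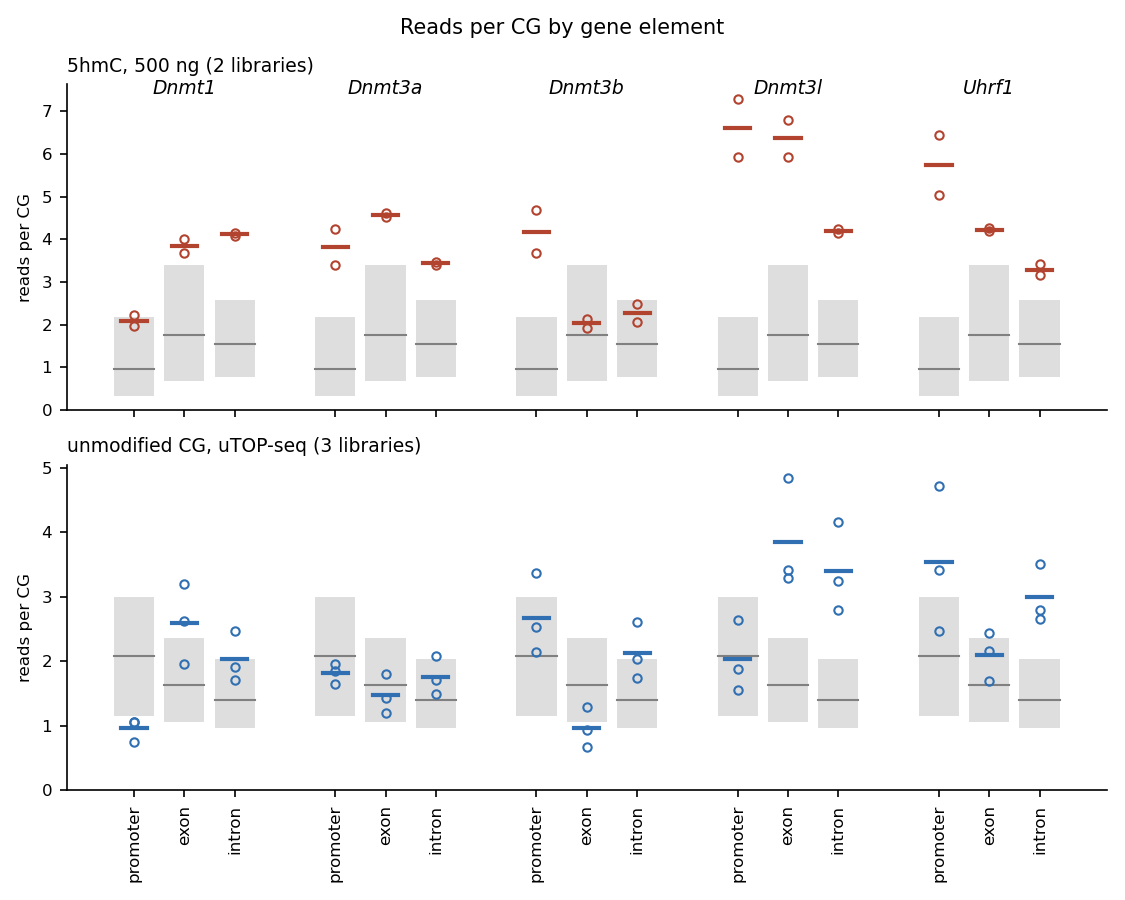
Reads per CG in promoter, exons and introns of the 5 genes at 500 ng (5hmC, top, 2 libraries) and in uTOP-seq (uCG, bottom, 3 libraries); circles are libraries, colored bars their mean, and gray boxes with a line the quartiles and median of all autosomal protein-coding genes with at least 5 CGs in that element. For 5hmC the Dnmt3l promoter stands highest at 6.60, and the exons of Dnmt3b, at 2.03, lie close to the gray line of 1.75.

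The most covered CG had 2 CGs in 251 bp in Dnmt3b, 4 in Dnmt3l, 6 in Uhrf1 and 9 in Dnmt3a. The most covered CG of each of these 4 genes is shown with 14 bases on each side, the measured CG in capitals, so that its surroundings can be compared; each runs 5′ to 3′ along the gene.
Dnmt3b, chr2:153660817-153660846, plus strand: tgggattcagcaccCGctgatgagagaggg
Dnmt3a, chr12:3905800-3905829, plus strand: cctccgtcccgcccCGgcaggtgctgtagg
Uhrf1, chr17:56322087-56322116, plus strand: cggccagtcaccacCGtgtgtcagcacaac
Dnmt3l, chr10:78045220-78045249, plus strand: ttcatgatagagccCGgagggtactgcctg

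The CG of Dnmt3b, in an intron 11.4 kb from the start, had 67 and 49 reads with 500 ng of input, 32 and 25 with 50 ng, and 19, 9 and 4 uCG reads. That of Dnmt3a, 99.8 kb from the start, had 58 and 55 reads at 500 ng. Uhrf1 had 62 and 34 at a CG in an exon 18.8 kb from the start, and Dnmt3l 49 and 26 at a CG in an intron 3.29 kb from the start. All 4 had reads in each 500-ng, 50-ng and uTOP-seq library, and at 5 ng the CG of Uhrf1 had none in either library.

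Reads were unevenly spread among the CGs. The most covered 10% of CGs held 42.9% of the 500-ng reads in Dnmt3l, 44.9% in Dnmt1, 51.8% in Uhrf1, 52.2% in Dnmt3a and 54.9% in Dnmt3b. Both 500-ng libraries covered 503 CGs of Dnmt1 (52.6%), 765 of Dnmt3a (45.8%), 197 of Dnmt3b (34.6%), 162 of Dnmt3l (49.2%) and 196 of Uhrf1 (47.8%). Pearson r between the 2 libraries over the CGs of a gene was 0.752 to 0.827 at 500 ng, 0.413 to 0.520 at 50 ng and 0.0464 to 0.138 at 5 ng, as a description over CGs that share their libraries. Across the same CGs the 2 marks went weakly together, with r from 0.152 in Uhrf1 to 0.410 in Dnmt3a, values that local CG density enters.

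With less DNA, fewer CGs were covered in both libraries. At 50 ng these were 15.8% (Dnmt3b) to 26.1% (Dnmt3l) of CGs, and at 5 ng they were 2.63% (Dnmt3b) to 6.08% (Dnmt3l). Divided by the mean reads per CG of the library, the level of Dnmt1 came to 2.51 ± 0.0485 with 500 ng, 2.25 ± 0.0379 with 50 ng and 2.13 ± 0.163 with 5 ng (SD, n = 2). For Dnmt3l the values were 2.79 ± 0.0428, 2.66 ± 0.154 and 2.77 ± 0.627, and for Dnmt3b 1.51 ± 0.0806, 1.49 ± 0.0229 and 1.42 ± 0.0434. Dnmt3a had 2.37 ± 0.0222, 2.23 ± 0.0724 and 2.24 ± 0.199, and Uhrf1 2.40 ± 0.0838, 2.43 ± 0.0156 and 2.67 ± 0.252. Dnmt3b was the lowest of the 5 at every input.

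With all libraries, none of the 5 genes was called between inputs by edgeR. The log2 difference from 500 ng was −0.15 in Dnmt1 (edgeR adjusted p = 0.318) to 0.03 in Uhrf1 at 50 ng, and −0.20 in Dnmt1 (edgeR adjusted p = 0.436) to 0.19 in Uhrf1 at 5 ng. edgeR called 0% of 18233 and of 17149 genes at these inputs, with 2207 and 2051 genes at an unadjusted p under 0.05, and DESeq2 called 13 genes higher and 16 lower of the 1266 to which it gave an adjusted p at 50 ng, and 603 higher and 432 lower at 5 ng. Leaving out a library of the low input left 1 library there, so only the log2 differences are given. Without the first 5-ng library Dnmt1 came to −0.13, Dnmt3l to −0.22, Dnmt3a to 0.05, Uhrf1 to 0.09 and Dnmt3b to −0.02. Without the second Dnmt1 came to −0.29, Dnmt3l to 0.24, Dnmt3a to −0.14, Uhrf1 to 0.28 and Dnmt3b to −0.08. Dnmt3l and Dnmt3a thus changed direction with the library kept. At 50 ng Dnmt1 came to −0.13 without the first library and to −0.17 without the second, and Dnmt3a to −0.11 and −0.05. Promoters differed between the 5-ng libraries in all 5 genes: that of Dnmt3b had 2.48 and 0.409 reads per CG, that of Dnmt1 0.125 and 0.625, that of Dnmt3l 2.36 and 4.80, that of Dnmt3a 0.300 and 7.15 reads per CG in the 2 libraries and that of Uhrf1 2.03 and 6.00.

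The control libraries had 0 to 2 reads in each of the 5 genes, with 1 exception. In the second 5-ng control library Dnmt1 had 34 reads, all at 1 intronic CG 31640 bp from the gene start, where the labeled libraries had 1 read each with 500 ng, 0 and 10 with 50 ng and none with 5 ng.

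The genes that work with the 5 were taken from a fixed list of 22, of which 21 lie on autosomes. Among them are the paralogs Dnmt3c, Trdmt1 and Uhrf2, partners at the replication fork such as Pcna, Lig1 and Usp7, chromatin readers and histone methyltransferases, and Mat2a and Ahcy of the methyl donor cycle. For 5hmC 9 of the 21 promoters were higher than the gene body and 9 lower, with a median log2 difference of 0.41, beside 21.7% and 44.7% of all promoters and a median of −0.51. For uCG 15 were higher and 3 lower, with a median of 0.78, beside 40.5% and 16.3% of all promoters and a median of 0.27. The 21 promoters are gene starts only, whereas all promoters also include alternative starts, so the shares are not of like sets. The most positive called 5hmC difference was that of Mat2a, which makes S-adenosylmethionine (0.348 against 0.0896 reads per CG, log2 difference 1.94, edgeR adjusted p = 6.17e-03). Its promoter level was itself low, near the lower quartile of 0.333 over the promoters of 20347 genes, and its body had few reads. The most negative called 5hmC difference was that of Cbx5, a heterochromatin protein, whose 87 promoter CGs had no read at 500 ng, at least 107-fold lower than the 1.84 reads per CG of its body. For uCG the most positive was that of Nsd1, a histone methyltransferase (1.89), and the most negative that of Trim28, a corepressor (−0.72). In exons against introns, 10 were higher and 5 lower for 5hmC, near the 47.3% and 23.7% of all genes, and 4 were higher and 8 lower for uCG, beside 40.1% and 16.1%. Over the whole gene the 21 had a median of 1.60 reads per CG at 500 ng, from 0.129 in Pcna to 4.22 in Ehmt2, against 3.75 over the 5 genes.

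The autosomal genes nearest to each of the 5 were found from 6 values, the log2 reads per CG in promoter, exons and introns for both marks, each scaled to an SD of 1 over 12948 genes. They were Ptgis and Stac3 for Dnmt1 (distances 0.514 and 0.528), Lrrc32 and Emid1 for Dnmt3a (0.284 and 0.458), Ppp2r2c and Aqp8 for Dnmt3b (0.573 and 0.612), Ltbp3 and Tgfbr3l for Dnmt3l (0.572 and 0.638), and Elmo3 and Plcb3 for Uhrf1 (0.376 and 0.563). Lrrc32, the closest of the 10, had 3.66, 5.25 and 2.96 reads per CG for 5hmC in promoter, exons and introns, beside 3.82, 4.57 and 3.44 in Dnmt3a. None of the 5 genes was among these 10.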

How the data were processed

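Data were 12 hmTOP-seq and 3 uTOP-seq libraries of E14TG2a DNA. The authors required a raw read length of 80 nt or more and a mapping quality of 30 or more on mm10, dropped duplicates that shared start and length, and deposited read counts per CG without normalization; the aligner was not given in the sources used here. The strands of a CG, listed separately for uCG, were merged. Depth was 14884939 to 32502791 reads in labeled and 3409 to 10072 in control hmTOP-seq libraries, and 20120568 to 28412885 in uTOP-seq libraries. No molecular identifiers were used, and floors cover counting error only.

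Every listed position was checked to be a CG of GRCm38. Genes and starts came from GENCODE M21, with starts within 1 kb of each other joined and the gene start being that of the gene record. A CG in the 2 kb before a gene start counted as promoter, then as alternative promoter, exon or intron. Reads were summed per element and library. Elements were compared within genes by the quasi-likelihood test of edgeR 4.0.16 (R 4.3.3), with a term for the library, the log number of CGs as offset, at least 5 CGs in both elements and at least 10 reads in total; inputs were compared with TMM normalization and at least 10 reads in every library. P-values were adjusted over all genes or promoters by the Benjamini-Hochberg method, with a threshold of 0.05. DESeq2 1.42.0 was an alternative, beside other windows, counts capped at the 99.9th percentile, no filter, a replicate block and leaving out each replicate. The tests were tried on simulated data.

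Percentiles are among genes with at least 5 CGs in the element. Named were the 5 genes and their alternative starts, the listed genes with the most positive and most negative called promoter difference, and the 2 nearest genes by distance (log2 of reads per CG plus 0.1, at least 20 CGs in each element). The genes, lists and tests were chosen with earlier results of these data known, and the zones around starts, density classes, runs and printed stretches after the values were seen. Suv39h1, on X, was not tested. The sequence of 1 intronic stretch and the results that rest on it are not reported here.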

Additional observations from a re-analysis of the deposited data

Results flagged for a closer look

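In the second 5-ng control library, made without BGT, Dnmt1 had 34 reads, above the 3 counts that a count of 0 allows. All of them were at 1 CG of an intron (chr9, position 20928248 of mm10), while the other 5 control libraries had 0 to 2 reads in the whole gene. The reads of the control libraries entered no comparison. Their source was not tested.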

How the results depend on the processing

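Under the alternatives, 16 values for single genes and starts lost the call and 10 gained it. Another 13, given next, changed direction and were called in the main test, under the alternative or in both; values called under neither also changed sign. For 5hmC with 1 kb on each side, Dnmt3b came to −1.79, Dnmt3a to −3.17, Uhrf1 to −1.47, Dnmt3a-208 to 0.36, Dnmt3a-211 to 0.83 and Dnmt3a-213 to −0.89 (log2), and for uCG Dnmt3l to 0.42, Dnmt3l-201 to 0.75, Dnmt3l-202 to 0.14, Dnmt3a to −0.41 and Dnmt3a-211 to 0.31; the other window takes in other CGs, as the bins around the starts show. With CGs more than 2 kb from the start, exons of Dnmt3b came to 0.33 for 5hmC. In the 50-ng libraries 1773 promoters were higher and 6082 lower for 5hmC, and 4573 and 2321 genes higher and lower in exons; the cause was not tested. With CGs more than 2 kb from the start, 2423 of 16135 genes were lower in exons for 5hmC, and 4643 of 16286 higher for uCG, with fewer genes and CGs tested. Between inputs, DESeq2 called 13 genes higher and 16 lower at 50 ng, and 603 and 432 at 5 ng. With a replicate block, edgeR called 39 genes higher and 62 lower at 50 ng, and 1 higher at 5 ng; deviations of same-numbered libraries had r of 0.0295 and −0.00570, so that the numbers did not pair libraries. Leaving out 1 library of 2 gave 0 to 1110 genes higher and 1 to 1243 lower at 50 ng, and 0 to 4876 and 0 to 5008 at 5 ng, where a lone library is assumed to vary like the 500-ng libraries and the spread of 5-ng libraries no longer enters; Dnmt3l then came to −0.22 at 5 ng without replicate 1 and to 0.24 without replicate 2. For 5hmC elements, leaving out a 500-ng library left no replicate and gave values without a test, and none of the called values changed sign. Depth limits single CGs, of which at 5 ng at most 6.08% were covered in both libraries of any of the 5 genes.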
